A study of Homo sapiens with 2 samples.

Results

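DNA replication and repair genes were read on 1 array of HCC4006ER cells and 1 array of HCC4006 cells. The group holds 51 listed genes with roles in origin licensing, helicase activation, the replication fork, nucleotide synthesis, DNA repair and the replication checkpoint. They were listed by name, with earlier results of these data known, and no measured value entered the rule. For 49 of the 51 there was a probe set with 1 gene symbol, out of 19775 genes read in this way, and BRCA2 and FANCD2 were not analysed here. Where a gene had several probe sets, the one with the highest mean log2 signal over both arrays was used.

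HCC4006 is an established human non-small cell lung cancer (NSCLC) line that carries an EGFR exon 19 deletion and is sensitive to erlotinib, an inhibitor of the EGFR kinase. HCC4006ER cells are an uncloned resistant population derived from HCC4006 by 3 months of exposure to erlotinib, from 3 nM up to 4 μM, and they carry the same EGFR deletion and are labelled as having undergone epithelial-mesenchymal transition (EMT). Neither line received any further treatment before RNA was taken after 48 hours of culture in serum. The RNA of 3 preparations per line was mixed before hybridization, so each line had 1 array, without replicates and without any test, and every difference below is a value from these 2 arrays.

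Values were the MAS5 signals that the authors deposited, on a linear scale. Background levels were set at 91.6 on the HCC4006ER array and 96.2 on the HCC4006 array, the 95th percentiles of 127 probe sets of olfactory and bitter taste receptors. The fold is the HCC4006ER signal over the HCC4006 signal, given on the log2 scale, and 1.5-fold, the threshold in the methods, is a log2 fold of 0.58. Between probe sets of the same gene the log2 fold varied with a pooled SD of 0.27 over 5264 genes, which covers neither arrays nor cultures. Signal ratios of the 3′ to the 5′ control probe sets were 0.890 in HCC4006ER and 0.933 in HCC4006 for GAPDH, and 1.09 on both arrays for actin. All 6 markers of epithelial lung cancer cells (EPCAM, KRT7, KRT8, KRT18, KRT19 and CDH1) were above background on both arrays, while 1 of 10 fibroblast markers, 0 of 7 measured leukocyte markers and 1 of 5 endothelial markers were above it in HCC4006ER, against 2, 1 and 1 in HCC4006. The EMT label was not matched throughout: VIM was 1.53-fold higher in HCC4006ER, but CDH1 had a log2 fold of 0.08 and ZEB1 was under the background level on both arrays, with signals of 53.1 in HCC4006ER and 42.5 in HCC4006. By microarray and RT-PCR, the paper reports much higher ZEB1 and loss of E-cadherin (CDH1) transcript in HCC4006ER. The deposited signals showed neither, and the reason was not tested. The names HCC4006ER and HCC4006 are therefore used here as the labels of the arrays.

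Before S phase, the origin recognition complex together with CDC6 and CDT1 loads rings of the MCM2-7 helicase on DNA. CDC45 and the GINS complex then turn these rings into moving helicases, and the polymerases, the sliding clamp PCNA and the enzymes that make deoxynucleotides take over. Many of these genes are switched on by E2F transcription factors as cells enter the cycle, so that their transcripts are abundant in dividing tumor cells and low in resting tissue. The same cells use homologous recombination, the Fanconi anemia pathway, mismatch repair and the ATR and CHEK1 kinases to deal with damaged or stalled forks.

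Replication and repair transcripts lay close together on the 2 arrays. All 49 measured genes were above background on both. CDC6, ORC6 and POLE2 were higher past 1.5-fold in HCC4006ER, 0 genes were lower past it, and 46 lay within it. Thus 6.12% of the genes were higher. Over all 11896 genes above background, 7.99% passed the threshold on the side of HCC4006ER and 11.2% on the side of HCC4006. Among the 7967 genes whose mean log2 signal was at or above that of the dimmest of the 49, a set chosen after the values were seen, 7.2% were higher and 8.21% lower. The share of higher genes was thus near that of genes in general, and the share of lower genes was under it.

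The log2 folds of the 49 genes ran from -0.40 for POLA1 to 0.68 for ORC6. Their SD across genes was 0.26, against 0.54 across all genes above background. It was 0.48 across the genes at least as bright as the dimmest of the 49. That set was bounded only from below and was not matched to the 49 in signal. Whether signal level bears on the spread was not tested. A log2 fold within 0.25 of zero was found for 34 of the 49 (69.4%), for 47.5% of all genes above background and for 51.7% of the genes at least as bright. The median log2 fold was 0.08, and it was -0.04 over all genes above background and -0.01 over those at least as bright. In 30 of the 49 (61.2%) the HCC4006ER signal was the higher of the 2. The same held for 45.6% of all genes above background and 48.5% of those at least as bright. In 35 genes the log2 fold was smaller than the SD of 0.27 between probe sets of a gene. When the arrays were given equal medians, each log2 fold became larger by 0.14, the median of the 49 genes was 0.22 and 9 genes with a negative log2 fold near zero had a positive one.

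**Figure D1:**
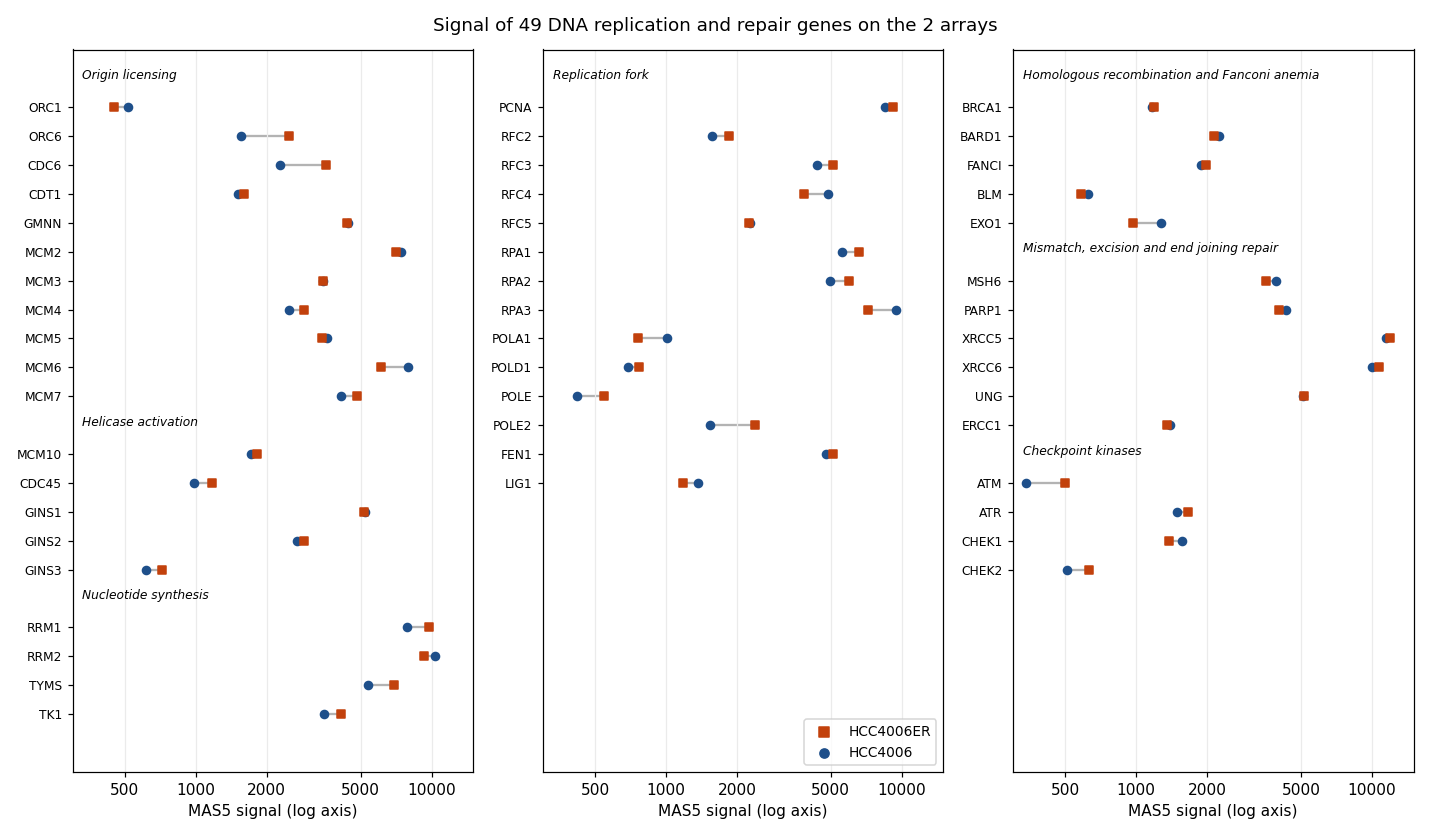
MAS5 signal on a log axis for the 49 genes, grouped by role, with squares for HCC4006ER and circles for HCC4006. The 2 marks nearly coincide for most genes, and the widest gaps toward HCC4006ER are those of ORC6, CDC6 and POLE2.

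ORC6, a subunit of the origin recognition complex, had a signal of 2487 in HCC4006ER and 1552 in HCC4006, a 1.60-fold difference (log2 fold 0.68). It was read from 1 probe set, of a kind whose probes can match more than 1 transcript. CDC6, the ATPase that binds the origin complex and recruits the helicase, had 3580 in HCC4006ER and 2269 in HCC4006 (1.58-fold). Its second probe set gave 3318 in HCC4006ER and 1973 in HCC4006, a log2 fold of 0.75 beside 0.66 for the first. POLE2, the accessory subunit of DNA polymerase epsilon, which copies the leading strand, had 2384 in HCC4006ER and 1538 in HCC4006 (1.55-fold) in its single probe set. POLE2 was the nearest gene past the threshold and ATM, at 1.46-fold, the nearest within it. None of the 49 reached 2-fold.

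The bases before the starts of these 3 genes are shown because they alone passed 1.5-fold. They are the 250 bases ahead of the RefSeq start in GRCh38.p14, read 5′ to 3′ on the strand of the gene, with capitals for the CCAAT box (CCAAT, or ATTGG on the opposite strand) and for an E2F match. The stretch for ORC6 is chr16:46689409-46689658 (plus strand), that for CDC6 is chr17:40287629-40287878 (plus strand) and that for POLE2 is chr14:49688215-49688464 (minus strand).
ORC6: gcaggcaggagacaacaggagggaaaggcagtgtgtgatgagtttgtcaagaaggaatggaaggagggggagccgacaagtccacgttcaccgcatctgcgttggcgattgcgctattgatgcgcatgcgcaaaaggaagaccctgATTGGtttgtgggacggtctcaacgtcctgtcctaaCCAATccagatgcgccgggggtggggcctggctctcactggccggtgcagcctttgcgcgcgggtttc
CDC6: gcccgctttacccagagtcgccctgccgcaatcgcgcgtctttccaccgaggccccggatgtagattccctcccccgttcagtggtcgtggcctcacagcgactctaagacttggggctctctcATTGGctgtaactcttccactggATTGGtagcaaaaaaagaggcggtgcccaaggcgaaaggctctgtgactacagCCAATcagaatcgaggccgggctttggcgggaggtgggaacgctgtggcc
POLE2: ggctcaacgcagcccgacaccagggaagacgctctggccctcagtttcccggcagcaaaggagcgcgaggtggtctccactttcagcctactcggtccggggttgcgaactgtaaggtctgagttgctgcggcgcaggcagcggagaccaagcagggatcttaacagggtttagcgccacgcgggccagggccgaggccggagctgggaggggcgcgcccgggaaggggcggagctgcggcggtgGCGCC

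ORC6 has 2 CCAAT boxes in this stretch and CDC6 has 3. The last 5 bases of the POLE2 stretch begin an E2F match that runs over the start of the gene. E2F matches were searched as TTTCCCGC, TTTGGCGC, TTTCGCGC or TTTGCCGC on both strands, in the 250 bases before and the 50 after each RefSeq start, and overlapping matches were kept. The windows of 30 bases below are shown to compare the matches of CDC6 and POLE2 with those of 4 subunits of the MCM2-7 helicase, which differed less between the arrays. Capitals mark the match, which in POLE2 is read from the opposite strand.
CDC6, chr17:40287875-40287904 (plus strand): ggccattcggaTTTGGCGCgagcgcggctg
POLE2, chr14:49688201-49688230 (minus strand): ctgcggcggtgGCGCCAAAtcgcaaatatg
MCM2, chr3:127598402-127598431 (plus strand): cgtgaaccactTTTCGCGCgaaacctggtt
MCM3, chr6:52284728-52284757 (minus strand): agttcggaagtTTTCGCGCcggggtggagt
MCM6, chr2:135876577-135876606 (minus strand): agggctttgcaTTTGGCGCgaaatcccttt
MCM6, chr2:135876515-135876544 (minus strand): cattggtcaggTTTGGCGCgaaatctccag
MCM7, chr7:100101388-100101417 (minus strand): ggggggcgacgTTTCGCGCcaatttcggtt

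TTTGGCGC was found in 8 of the measured genes, whose log2 folds were 0.66 for CDC6, 0.63 for POLE2, 0.37 for POLE, 0.11 for XRCC6, -0.00 for GINS1, -0.01 for GMNN, -0.38 for MCM6 and -0.40 for POLA1. MCM3 and MCM7 each have a further match, TTTCCCGC, farther upstream. In MCM2 and in both MCM6 windows the opposite strand holds an overlapping TTTCGCGC. Promoter sequences were listed for 45 of the 51 genes, some with several starts, and 22 of the 45 (48.9%) had an E2F match at 1 or more starts. Of all 27305 genes with a listed promoter 3.99% had one, and of 115 other replication and repair genes 16.5% did. Counted by promoter, 22 of 65 (33.8%) held a match, against 3.31% of all 35116. A CCAAT box stood in 37 of the 65 (56.9%), against 34.6% of all promoters, and the element TTTGAA (CHR), known from genes of mitosis, in 4 of the 65 (6.15%), against 15.2% of all. The median log2 fold was 0.09 over the 21 measured genes with an E2F match and also 0.09 over the 22 without one. Of the genes past 1.5-fold, 2 had a match and 1 had none. These matches describe the letters only, and binding was not measured.

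Among the 11 origin licensing genes, the 2 past 1.5-fold (18.2%) were ORC6 and CDC6, and the median log2 fold was 0.01. That count is too small to read against the 7.99% higher of all genes above background. ORC1, the largest subunit of the origin complex, had 448 in HCC4006ER and 518 in HCC4006 (log2 fold -0.21). In their chosen probe sets, the subunits of the same complex outside the 49 genes lay between -0.02 for ORC4 and 0.28 for ORC3. A second ORC2 probe set was at 0.58, near the 0.68 of ORC6. CDT1, which loads the helicase together with CDC6, had 1603 in HCC4006ER and 1502 in HCC4006 (log2 fold 0.09). Geminin (GMNN), the inhibitor of CDT1, had 4369 in HCC4006ER and 4414 in HCC4006 (log2 fold -0.01).

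The helicase subunits themselves differed little. MCM3 had 3471 in HCC4006ER and 3455 in HCC4006 (log2 fold 0.01), and MCM2 and MCM5 had log2 folds of -0.07 each. MCM4 and MCM7 were on the side of HCC4006ER, with log2 folds of 0.21 and 0.22, and 4 of 4 MCM4 probe sets above background were higher there, at 0.16 to 0.46. MCM6 was the lowest of the ring, with 6073 in HCC4006ER and 7930 in HCC4006 (log2 fold -0.38). The 6 subunits, which join the ring in equal numbers, thus spanned 0.61 on the log2 scale, all within 1.5-fold.

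Helicase activation was the most even of the roles tied to replication. MCM10, a factor that helps to start the loaded helicases, had 1818 in HCC4006ER and 1721 in HCC4006, and all 3 of its probe sets were higher in HCC4006ER, with log2 folds of 0.08 to 0.22. CDC45, the helicase cofactor, had 1169 in HCC4006ER and 981 in HCC4006 (log2 fold 0.25). GINS1, GINS2 and GINS3 had log2 folds of -0.00, 0.10 and 0.22, and GINS4, the remaining subunit, 0.24. GINS2 gave different answers by probe set: its chosen probe set read 2879 in HCC4006ER and 2695 in HCC4006, and 2 dim probe sets gave log2 folds of -0.46 and 0.71.

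At the replication fork, 1 of 14 genes (POLE2, 7.14%) was higher past 1.5-fold, against 7.99% of all genes above background. The median log2 fold was 0.13. PCNA, the sliding clamp, had 9142 in HCC4006ER and 8465 in HCC4006 (log2 fold 0.11). Of replication factor C, which places the clamp on DNA, RFC2 and RFC3 were at 0.24 and 0.22 with every probe set above background higher in HCC4006ER. RFC5 was at -0.01, with 0.23 and -0.09 in its other probe sets. RFC4 was on the other side, with 3830 in HCC4006ER and 4876 in HCC4006 (log2 fold -0.35).

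Replication protein A, which coats single-stranded DNA, was split in the same way. RPA1 had 6556 in HCC4006ER and 5594 in HCC4006 (log2 fold 0.23), and RPA2 had 5991 in HCC4006ER and 4945 in HCC4006 (0.28). RPA3, the smallest subunit, had 7213 in HCC4006ER and 9449 in HCC4006 (-0.39). Both RPA1 probe sets above background were higher in HCC4006ER, while RPA2 and RPA3 had 1 probe set each.

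The catalytic subunits of the 3 replicative polymerases differed in sign. POLA1, which with primase starts each new strand, had 760 in HCC4006ER and 1006 in HCC4006 and the lowest log2 fold of the 49, at -0.40. POLD1, of the lagging strand polymerase, had 765 in HCC4006ER and 691 in HCC4006 (0.15). POLE, of the leading strand polymerase, had 545 in HCC4006ER and 420 in HCC4006 (0.37), so that both subunits of polymerase epsilon among the 49 were higher in HCC4006ER, whereas POLE3 and POLE4, its small histone-fold subunits, were at -0.04 and -0.20. Of the other subunits, POLD2 of polymerase delta was past 1.5-fold, with 2864 in HCC4006ER and 4480 in HCC4006 (log2 fold -0.65), and POLA2, PRIM1 and PRIM2 were at 0.19, 0.14 and -0.06. FEN1, the nuclease that trims Okazaki fragments, had a log2 fold of 0.10, and LIG1, the ligase that joins them, -0.22.

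**Figure D2:**
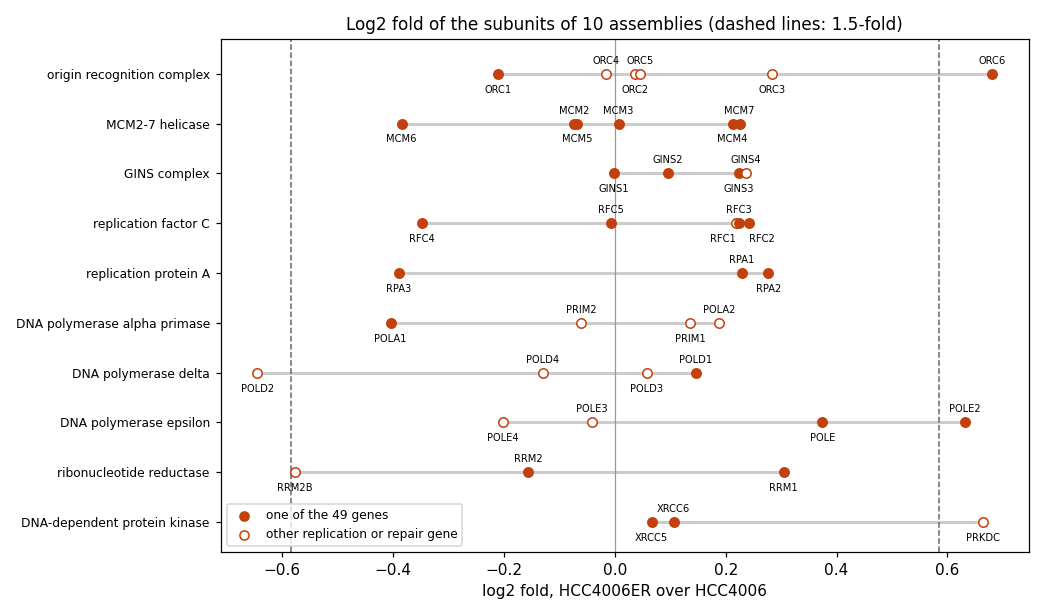
Log2 fold of HCC4006ER over HCC4006 for the subunits of 10 assemblies, with filled circles for the genes described here, open circles for other replication and repair genes, grey bars from the lowest to the highest subunit and dashed lines at 1.5-fold. Past the lines lie ORC6, POLE2 and PRKDC on the right and POLD2 on the left; RRM2B lies just within.

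The 4 genes of deoxynucleotide synthesis had a median of 0.27, the highest among the 7 roles of the 49 genes, while 9 other genes of nucleotide supply had a median of -0.13. RRM1, the large subunit of ribonucleotide reductase, had 9732 in HCC4006ER and 7880 in HCC4006 (log2 fold 0.30), and its other probe set was at 0.35. TYMS, the thymidylate synthase targeted by fluorouracil and pemetrexed, had 6904 in HCC4006ER and 5365 in HCC4006 (0.36), with 0.28 in its other probe set above background. TK1, the thymidine kinase of S phase, was at 0.24 with 0.22 in its other probe set. These 3 genes were therefore on the side of HCC4006ER in every probe set above background, each within 1.5-fold. RRM2, the small subunit of ribonucleotide reductase, had 9253 in HCC4006ER and 10309 in HCC4006 (-0.16) in one probe set and 8948 in HCC4006ER and 8441 in HCC4006 (0.08) in the other.

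The 5 measured genes of homologous recombination and the Fanconi anemia pathway had a median of -0.07. BRCA1, which acts early in recombination, had 1185 in HCC4006ER and 1166 in HCC4006 (log2 fold 0.02), and its partner BARD1 had 2142 in HCC4006ER and 2254 in HCC4006 (-0.07), lower in all 3 of its probe sets. FANCI, a partner in the clamp that closes on crosslinked DNA, was at 0.07, and BLM, a helicase that dissolves recombination intermediates, at -0.11. EXO1, a nuclease of end resection and mismatch repair, had 972 in HCC4006ER and 1274 in HCC4006 (-0.39) in its single probe set and was the lowest of the group.

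Genes of mismatch, excision and end joining repair varied least, from -0.14 to 0.11. MSH6, which recognizes base mismatches, had 3549 in HCC4006ER and 3915 in HCC4006 (log2 fold -0.14). XRCC5 and XRCC6, the Ku proteins that hold broken ends, were at 0.07 and 0.11. PARP1, which senses single-strand breaks, was at -0.09 and UNG, which removes uracil from DNA, at 0.01. ERCC1, of the nuclease that cuts out bulky adducts, had 1355 in HCC4006ER and 1384 in HCC4006 (-0.03). A second ERCC1 probe set gave -0.07, but the dimmest, with 317 in HCC4006ER and 164 in HCC4006, gave 0.95.

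The checkpoint kinases pointed in both directions. ATM, the kinase of double-strand breaks, had 497 in HCC4006ER and 341 in HCC4006 (log2 fold 0.54) in a probe set whose probes can match more than 1 transcript. Its 3 other probe sets above background gave 0.57, 0.16 and -0.01, and 2 lay under background on both arrays. Averaged over all 6, dim ones included, ATM was at -0.66, and with the arrays given equal medians it was at 0.68, past 1.5-fold. The size for ATM therefore depended on the probe set, and the negative average came from the 2 under background. ATR, the kinase of stalled forks, was at 0.15, with 0.19 in its other probe set above background. Its target CHEK1 had 1382 in HCC4006ER and 1570 in HCC4006 (-0.18) and was lower in 3 of 3 probe sets above background, and CHEK2, a target of ATM, was at 0.30 in its single probe set.

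**Figure D3:**
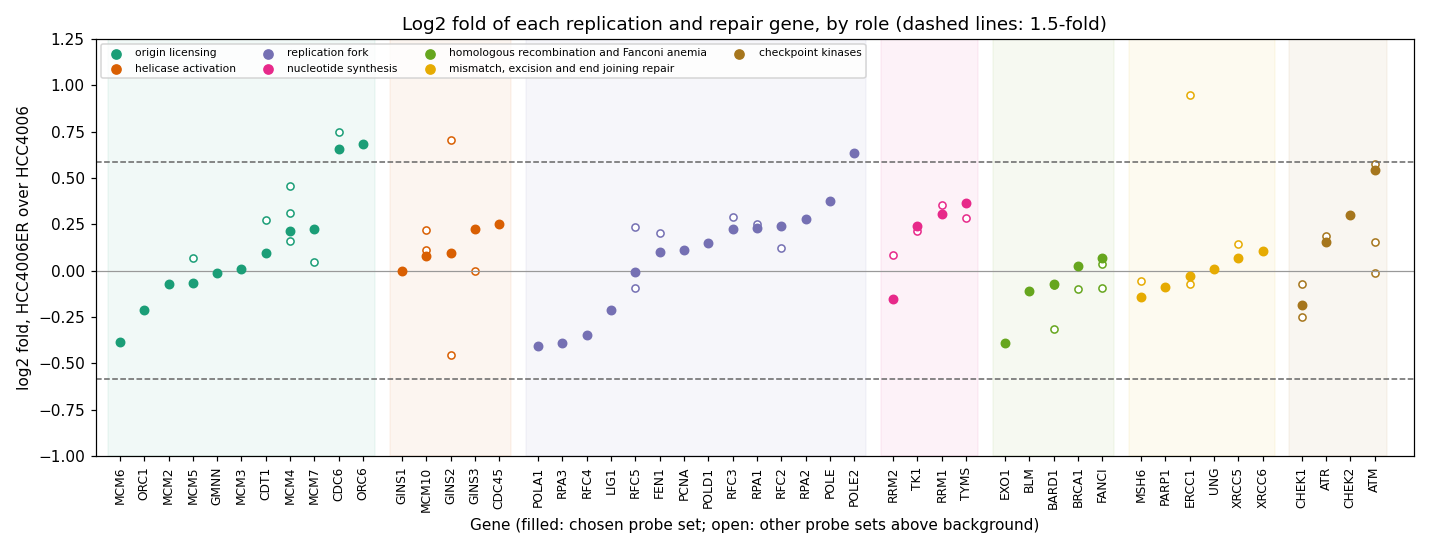
Log2 fold of HCC4006ER over HCC4006 for each of the 49 genes, ordered within its role, with a filled circle for the chosen probe set, open circles for other probe sets above background on both arrays and dashed lines at 1.5-fold. Filled circles of ORC6, CDC6 and POLE2 lie above the upper line, none lies below the lower line, and the open circles farthest from their filled circle are those of ERCC1 and GINS2.

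The 49 genes had 99 probe sets with 1 symbol, of which 86 were above background on both arrays and 13 under it on both. For 26 genes several probe sets were above background, and in 17 of these all pointed the same way. The pooled SD between probe sets was 0.23 for these 26 genes. For the remaining 23 genes a single probe set carried the value.

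The other replication and repair genes, a list of 139 of which 127 were measured, had a median log2 fold of 0.01 and an SD of 0.38 across genes. The SD was 0.28 over the 30 other replication genes, close to the 0.26 of the 49, so that the narrow spread was not particular to the 49. Of the 127, 10 were higher and 10 lower past 1.5-fold, 7.87% each way, against 7.99% higher and 11.2% lower of all genes above background. This split was 14 higher and 4 lower with equal medians of the arrays, and 4 higher and 13 lower with log2 folds averaged over a gene's probe sets. BRIP1, a helicase that binds BRCA1, had 809 in HCC4006ER and 464 in HCC4006 (log2 fold 0.80). MSH3, a mismatch sensor for small loops, was at 0.80 in its brightest probe set and -0.14 in the other above background, and REV3L, the catalytic subunit of polymerase zeta, was at 0.75. RAD52, a recombination mediator, was at least 1.67-fold higher, with 160 in HCC4006ER and a signal in HCC4006 at the background level.

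On the other side, PALB2, which links BRCA1 to BRCA2, had 730 in HCC4006ER and 1291 in HCC4006 (log2 fold -0.82). TK2, the mitochondrial thymidine kinase, was at -0.80, POLM, an end joining polymerase, at -0.73 with signals near background, and NTHL1, a glycosylase for oxidized bases, at -0.72. By role, 3 of 9 end joining genes (33.3%) were higher and 1 (11.1%) was lower, counts too small to read against the 7.99% and 11.2% of all genes, and PRKDC, the kinase that binds the Ku proteins, was among the higher at 0.66. Of 30 other replication genes 0 were higher and 2 (6.67%) lower, namely RECQL4 (-0.68) and POLD2, against the same 7.99% and 11.2%. Of 13 base excision repair genes 1 (7.69%) was lower, and 2 (15.4%) had a positive log2 fold, against 45.6% of all genes above background, at a median of -0.19. These counts are small too. POLB (-0.01), MBD4 (-0.04), NEIL3 (-0.07) and LIG3 (-0.09) lay near zero, within the shift of 0.14 that equal medians of the arrays bring. SMUG1, at -0.26, had another probe set at 0.58.

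**Figure D4:**
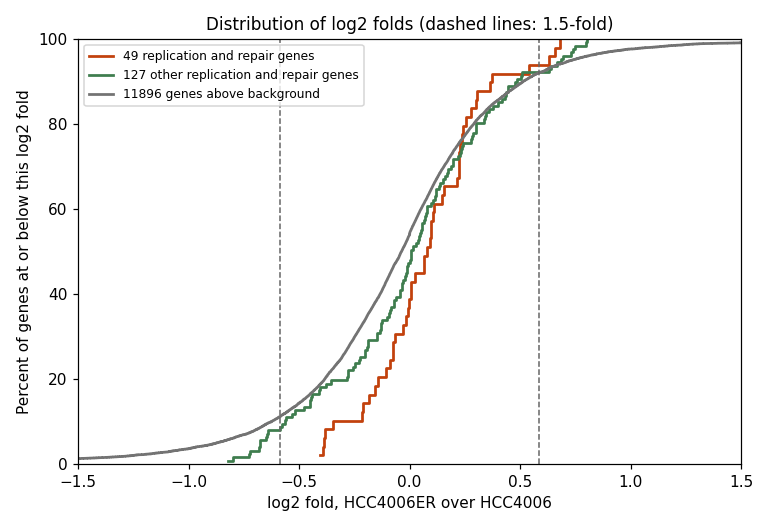
Cumulative share of genes, in percent, at or below each log2 fold of HCC4006ER over HCC4006, for the 49 genes, the 127 other replication and repair genes and all 11896 genes above background. The curve of the 49 genes is the steepest and begins at -0.40, inside the lower 1.5-fold line; both axes are linear, and folds beyond 1.5 on the log2 scale are not drawn.

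Of 17 regulators of S phase entry, 1 (5.88%) was higher and 4 (23.5%) were lower past 1.5-fold, against 7.99% and 11.2% of all genes above background. These counts are too small to read against those shares. CCNE2, a cyclin that drives entry into S phase, had 1049 in HCC4006ER and 2239 in HCC4006 (2.13-fold lower, log2 fold -1.09). E2F2, an activator of replication genes, had 207 in HCC4006ER and 430 in HCC4006 (log2 fold -1.05), and E2F5, a repressor E2F, 101 in HCC4006ER and 233 in HCC4006 (-1.21). Each had only 1 probe set above background on both arrays, and the E2F5 signal in HCC4006ER was near the background level of 91.6. CCNA2, the cyclin of S and G2 phase, was at -0.60. RBL2, a relative of RB1 that represses E2F targets in resting cells, was the only one higher past 1.5-fold, at 0.66, with 1.23 in its other probe set. The other 12 lay within 1.5-fold, among them E2F1 at -0.01, CCNE1 at -0.37, RB1 at 0.56 and E2F7 at 0.54. The counts depend on scaling: the shift of 0.14 from equal medians of the arrays would put RB1 and E2F7 past 1.5-fold and CCNA2 within it.

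Of 12 proliferation markers 11 lay within 1.5-fold and 1 (8.33%) was lower, against 11.2% lower of all genes above background. By sign, 5 of the 12 had a positive log2 fold and 7 a negative one. MKI67, the Ki-67 gene, had 1705 in HCC4006ER and 1633 in HCC4006 (log2 fold 0.06). That was the lowest of its 4 probe sets, which were all positive, up to 0.31. The mitotic kinase PLK1 was lower, with 1693 in HCC4006ER and 3188 in HCC4006 (-0.91). TOP2A had the highest log2 fold of the 12, at 0.39, and CCNB1 was at -0.51, with -0.69 in its other probe set. Whether these values bear on those of the replication genes was not tested. In bulk RNA, a different share of cells in S phase and a different amount of transcript per S phase cell cannot be told apart.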

How the data were processed

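Total RNA of HCC4006ER and HCC4006 cells was hybridized to 1 Affymetrix HG-U133 array each, with 3 preparations mixed per line. For each probe set the authors deposited a MAS5 signal intensity; GCOS 1.4 is named in the submitters' notes on processing. With 2% trimmed at each end, the mean was 500.1 on both arrays. Medians were 57.7 in HCC4006ER and 63.4 in HCC4006.

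Of 54675 probe sets, 41097 had 1 gene symbol in the platform annotation, 1801 had several and 11777 were not listed. Symbols were updated through gene identifiers in a RefSeq table (GRCh38.p14), from which promoter sequences also came. A signal under the background level was raised to that level, which makes the fold a lower bound. Genes under it on both arrays got no fold. Every measured gene of the 51 was to be named, with, from the 139 other genes, the 4 largest folds in each direction, and the S phase regulators and proliferation markers past 1.5-fold; further genes, among them E2F1, MKI67 and the subunits of assemblies, were chosen after their values were seen, as were the assemblies. The 51 genes and the lists were chosen with earlier results of these data known. The scripts were tested on simulated data. Python 3.11.15, numpy 2.4.6, pandas 2.3.3 and matplotlib 3.10.9 were used. Precision is limited by having 1 array per line.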

Additional observations from a re-analysis of the deposited data

How the results depend on the processing

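The 3 genes past 1.5-fold were also the ones past it with quantile normalization and with folds centred on genes above background. A background level at the 99th percentile left every value as it was. The measured ratio and the limit to genes above background on both arrays could not change them. All measured genes of the list were above background on both arrays. Read from the most different probe set, which gave a value for 41 of the 49 genes and lay under background for 8, 5 were higher past 1.5-fold, GINS2 and ERCC1 being added by dim probe sets. With equal medians of the arrays 4 were higher (ATM was added). With log2 folds averaged over a gene's probe sets, 4 were higher (RFC3 was added) and 1, ATM, was lower, at -0.66. Both changes came through probe sets under background on both arrays. Without probe sets whose probes can match several transcripts 36 genes had a value and 2 were higher, ORC6 being among the 13 with no other value. At 2-fold, 0 of the 49 were higher and 0 lower. The median log2 fold of the 49 ran from 0.06 to 0.22 over 9 alternatives.

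Of the 127 other replication and repair genes, 4 were higher (13 lower) when averaged over all probe sets and 4 were lower (14 higher) with equal medians of the arrays, against 10 higher and 10 lower as reported. At 2-fold, 0 of the 127 were higher and 0 lower in their chosen probe sets. Over single genes and alternatives, 409 of 420 log2 folds moved by less than the SD between probe sets, 11 moved by more, in 8 genes, and 0 of the genes past 1.5-fold changed sign. Many of the 420 could not move by more, so the count is no measure of robustness. The measured ratio and the limit to genes above background on both arrays had to repeat the reported values. Equal medians and centring shift all log2 folds alike, by less than that SD. Within 1.5-fold, 5 genes turned sign by more than that SD when averaged (ATM, ATR at -0.36, XRCC6 at -0.30, MSH6 at 0.27 and ERCC1 at 0.28), as did GINS2 (-0.46) without probe sets that can match several transcripts and ERCC1 (0.95) in its most different probe set. For ATM, ATR, XRCC6 and MSH6 the turn came from probe sets under background on both arrays. Averaged over probe sets above background alone, these genes kept their sign. That of ERCC1 came from a dim probe set above background. No paired analysis was possible because each line had 1 array.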
